A study of Mus musculus with 4 samples.

Results

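The cells described here are 102 barcodes of an aged mouse brain library picked for RNA of choroid plexus epithelium, out of 13662 barcodes of that library that passed limits on depth and mitochondrial RNA (0.747%, exact Clopper-Pearson 95% interval 0.609% to 0.906%) and 35204 in all 4 libraries of the study. A barcode is the tag shared by all RNA captured in 1 droplet, and a unique molecular identifier (UMI) marks 1 RNA molecule. Members had at least 500 UMIs, at least 250 genes and at most 10% mitochondrial UMIs. They held at least 5 UMIs summed over Enpp2, Calml4, 1500015O10Rik, 2900040C04Rik, Prlr and Trpm3, and at most 2 UMIs summed over the microglial genes P2ry12, Tmem119 and Cx3cr1. Members were thus chosen by the measured values of these 9 genes, which are given as a description and not as a finding. Transthyretin (Ttr), a hallmark transcript of this epithelium, was not part of the choice.

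The choroid plexus is a sheet of secretory epithelium in the brain ventricles. Its cells make cerebrospinal fluid by pumping ions from blood side to ventricle side, with carbonic anhydrases supplying bicarbonate and water following through aquaporins. They form the barrier between blood and cerebrospinal fluid through tight junctions, carry folate and thyroid hormone into the fluid, and secrete carrier proteins such as transthyretin.

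The study concerned immune cells and neuroblasts of the aged brain, and compared the brain and spleen of aged and young mice with 1 library each. Sorting by flow cytometry had kept cells with much CD45 on their surface, as leukocytes have, and the 10x Chromium chemistry (3' ends, v2) was used for capture. The labels give no age in numbers, strain, genotype or sex, and do not say how many mice went into a library. They attach a tamoxifen treatment with a search for tdTomato-positive NK cells to every library, and whether it applied to these mice is not stated. All 4 libraries are also labelled neuroblast: the 102 members held 0 UMIs of 7 neuron and neuroblast markers (Snap25, Syt1, Rbfox3, Dcx, Sox11, Tubb3 and Stmn2). With 1 library per group there is no replicate, no test was made, and all intervals below cover counting error only.

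The aged brain library held 57011537 UMIs, and the other 3 libraries held 26384220 to 40628623. Ambient RNA, the RNA that floats free and enters every droplet, was read from 998083 aged brain barcodes of at most 100 UMIs, which held 1839053 UMIs. The same rule found 18 barcodes among 8994 of the young brain, 2 among 5647 of the aged spleen and 0 among 6901 of the young spleen. Of the 8994 young brain barcodes, 5321 held more UMIs under the same barcode in another library, against 89 of the 13662 aged brain barcodes. This was so for 1 of the 102 aged members and 0 of the 18 young ones.

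Members were shallow. Their UMIs ranged from 500 to 7448 with a median of 859.5, and their genes from 299 to 2929 with a median of 503, while the other 13560 passing barcodes had a median of 2106 UMIs. Under 1000 UMIs were 63 members. The rule's microglial limit is a fixed number of UMIs at any depth. Of 474 aged brain barcodes with 5 or more UMIs of the 6 choroid plexus genes, the microglial limit removed 372, and 74 of these had at least 2 times as many choroid plexus UMIs as microglial UMIs. Those 74 had 504 to 44832 UMIs, with a median of 5702.5, and a median Ttr share of 14.7%. A mitochondrial limit of 20% in place of 10% gave 160 members.

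The 6 genes of the rule summed to between 5 and 132 UMIs per member, with a median of 8. Ambient RNA alone would give a median of 1.87 at these depths. In 92 members the sum was at least 2 times this expectation, and in 5 it was at or below it. Enpp2, which encodes the secreted enzyme autotaxin, had 1 to 102 UMIs per member with a median of 6. Prlr, the prolactin receptor, was found in 53 members, 2900040C04Rik in 52, Calml4 and 1500015O10Rik in 49 each, and the ion channel gene Trpm3 in 35. Just outside the rule, the 49 barcodes with a sum of 4 had a median Ttr share of 0.809% and a median of 0 UMIs over the choroid plexus markers that the rule did not use. Just inside, the 22 with a sum of 5 had a Ttr share of 2.17% and 1.5 UMIs of those markers. At the microglial limit, the 47 members with a sum of 2 had a median Ttr share of 4.11%, and the 30 barcodes with a sum of 3 had 8.19%.

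Ttr, the carrier of thyroxine and retinol-binding protein, had between 3 and 1528 UMIs per member, with a median of 73.5. It made up 0.0806% of the UMIs of the lowest member and 37.8% of the highest, with a median of 7.77%. In ambient RNA it made up 1.60%, and in the other passing barcodes the median was 0.394%. At least 2 times the ambient share was reached by 73 members, and at least 10% of all UMIs by 42. In 17 members the share was at or below the ambient one. Members thus spanned barcodes dominated by Ttr and barcodes in which it was no more frequent than in empty droplets. Across the 102 members, Ttr share and depth had a Spearman correlation of 0.0247 (Pearson -0.0264), and Ttr share and the share of the nuclear RNA Malat1 had one of -0.674 (Pearson -0.495). Shares of the same UMIs are not independent of each other, and these are descriptions across barcodes of 1 library. Malat1 took a median of 1.11% of a member's UMIs and 4.91% in other passing barcodes.

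**Figure D1:**
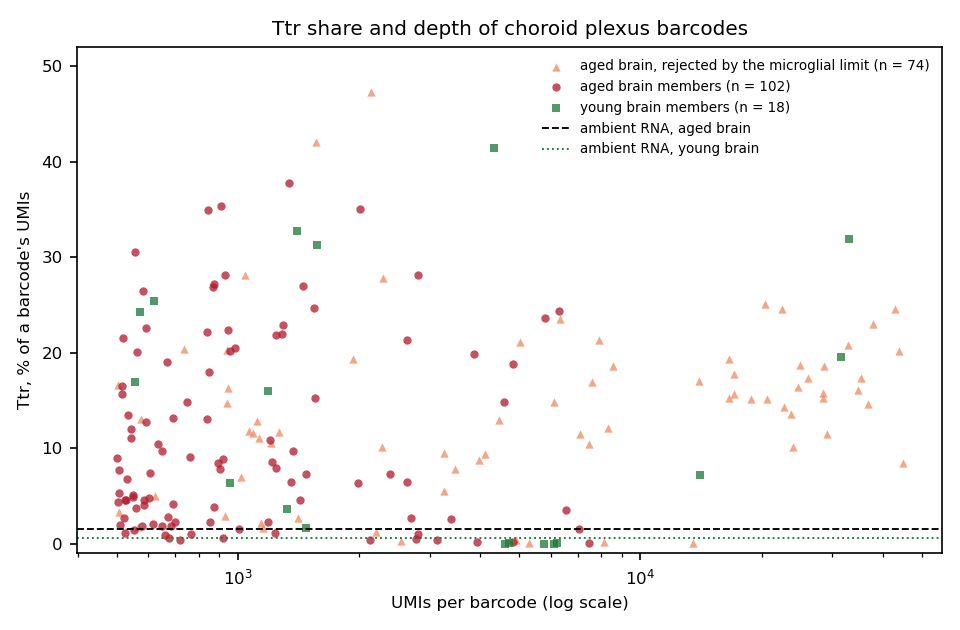
Each point is 1 barcode, with its UMIs on the horizontal axis (log scale) and the percent of its UMIs from Ttr on the vertical axis. Circles are the 102 aged brain members and squares the 18 young brain barcodes of the same rule. Triangles are the 74 aged brain barcodes removed by the microglial limit with at least 2 times as many choroid plexus as microglial UMIs. The dashed line is the Ttr share of aged ambient RNA, 1.60%, and the dotted line that of the young brain. Members crowd at low depth and spread over the whole range of Ttr shares.

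Markers of other cell types were counted in every member. At least 5 UMIs of 1 of 10 other lists were held by 9 members, and 6 of these 9 had a Ttr share at or below ambient. The lists were border macrophage in 5 members, mural cell or fibroblast in 3, oligodendrocyte in 2 and astrocyte in 2. The member with the most UMIs, 7448, held 88 astrocyte and 43 oligodendrocyte UMIs with a Ttr share of 0.0806%. Another of 3927 UMIs held 188 oligodendrocyte UMIs with a Ttr share of 0.178%. These barcodes met the rule, but their markers go against a choroid plexus label. The remaining 93 members had Ttr shares of 0.375% to 37.8%, with a median of 8.56%, and calls named below that differ over these 93 are given for them too. Genes of ependymal cells, which line the neighbouring ventricle wall, reached 5 UMIs in 5 members. Of the 12 listed, the defining genes Ccdc153 and Tmem212 had 0 UMIs. The list as a whole summed to 587 counts per 1e6 UMIs (CPM) in members and 72.3 CPM in ambient RNA. In other passing barcodes it summed to 39.5 CPM. Against these, 7 of 7 tested ependymal genes were higher (calls as defined below), where 6.3% of all tested genes were. Lists for endothelial, T and NK, B, neutrophil, erythroid and neuronal cells reached 5 UMIs in 0 members. Microglial genes reached 5 UMIs in 40 members, at a summed 2983 CPM against 11372 CPM in ambient RNA. These 7 genes include the 3 that the rule capped, which held 871 and 4732 CPM of the sums. The lower sum thus follows in part from the choice of members. Ptprc, which encodes CD45 itself, had 24 UMIs in 18 members, or 158 CPM (95% Poisson interval 101 to 236), below the 396 CPM of ambient RNA and the 407 CPM of other passing barcodes.

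To separate RNA of the cells from RNA that every droplet holds, UMIs summed over the members (151501 in all) were compared with those of the ambient barcodes. A gene was called higher or lower where the 95% interval of the CPM ratio lay at or beyond 2-fold, if members and ambient barcodes together held 50 UMIs of it or more, which 5878 genes did. A gene with under 50 ambient UMIs could reach this limit only with UMIs of the members, which favours genes higher there. Rsph1, Car14, Sox9, Slc2a12, Tgfb2, Gpx8 and Tpd52l1 below are among such genes, and counts of calls that hold them carry this limit. Higher in members were 287 genes (4.88% of those tested) and lower were 220 (3.74%), and the median of all genes was 0.05 on the log2 scale. The split depends on scaling, since Ttr takes a large share of the members' UMIs: 56.6% of the called genes were higher, 67.7% with Ttr left out of the totals and 44.0% when each member counted alike.

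Choroid plexus markers outside the rule were mostly above their ambient level. Of 19 such genes, Ttr among them, 14 had enough UMIs, and 13 of these were called higher and 0 lower, with a median log2 ratio of 2.30. Aqp1 and Slc13a4 among the 13 reached 50 UMIs only with those of the members themselves. Ttr stood at 108580 CPM in members and 15952 CPM in ambient RNA, a ratio of 6.81 (95% interval 6.68 to 6.94). Kl, which encodes klotho, a co-receptor of the hormone FGF23, was found in 42 members and stood at 515 against 71.8 CPM, a ratio of 7.17 (5.35 to 9.56). Otx2, the homeobox factor that choroid plexus needs for its development and upkeep, stood at 238 against 32.6 CPM, a ratio of 7.28 (4.68 to 11.2). Folr1, the folate receptor through which folate enters the fluid, had a ratio of 5.15 (3.70 to 7.09), and Igfbp2, a secreted binding protein of insulin-like growth factors, of 4.91 (3.68 to 6.49). The smaller ratios belonged to Clic6, a chloride channel family member, with 3.53 (2.67 to 4.62), the potassium channel subunit Kcne2 with 3.69 (2.15 to 6.10) and the Wnt and BMP antagonist Sostdc1 with 3.93 (2.83 to 5.36). The bicarbonate transporter gene Slc4a5 was the marker tested but not called, at 2.87 (1.58 to 4.91). The other 5 markers, Igf2, Cldn1, Cldn2, Steap1 and Wfikkn2, had 1 to 11 UMIs in members and were too shallow to test. Over the 93 members without markers of other types, where 5.06% of all tested genes were higher and 3.4% lower, 12 of 14 were called, the water channel gene Aqp1 no longer, and the ratio of Ttr was 8.51.

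**Figure D2:**
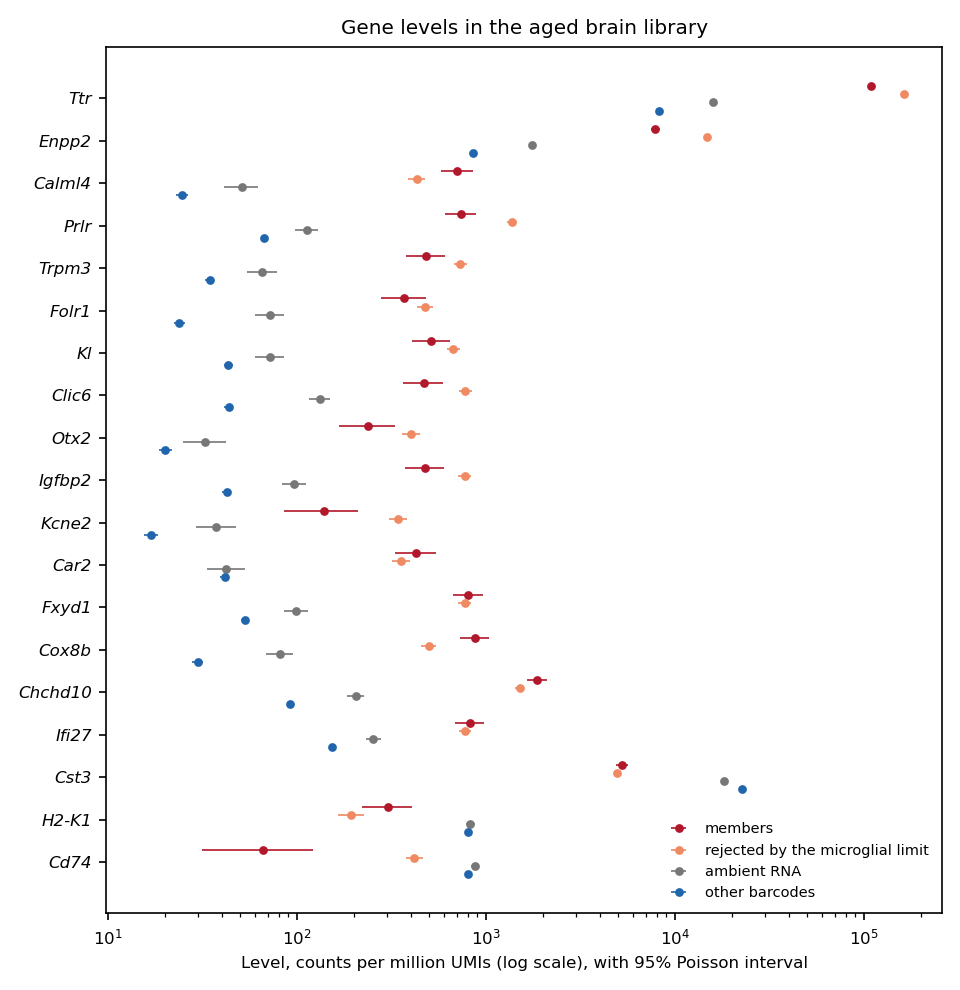
Levels of 19 genes in CPM (log scale) with 95% Poisson intervals. Shown are members, 74 of the 372 barcodes removed by the microglial limit, ambient RNA and other passing barcodes of the aged brain. Choroid plexus genes lie highest in members and in the 74 removed barcodes, while Cst3, H2-K1 and Cd74 lie lower in members than in ambient RNA.

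Several genes that move ions and water into the cerebrospinal fluid were also above ambient RNA. Of 23 genes 19 were tested, 10 were called higher and 0 lower, with a median log2 ratio of 1.85. Trpm3, which the rule used, is among the 10, so its call follows from the choice of members. Car2, the cytosolic carbonic anhydrase, stood at 429 CPM in members and 42.4 CPM in ambient RNA, a ratio of 10.1 (7.16 to 14.2). The membrane-bound Car14 had the same ratio of 10.1 with a wider interval (5.70 to 17.8), and Car12 had 4.6. Fxyd1, a regulator of the sodium pump, stood at 805 against 99.5 CPM, a ratio of 8.09 (6.38 to 10.2). The bicarbonate transporter gene Slc4a10 had a ratio of 4.6 and the potassium channel gene Kcnj13 one of 4.91. A beta subunit of the sodium pump and the NKCC1 cotransporter were not called: Atp1b1 had a ratio of 2.68 (1.92 to 3.66) and Slc12a2 of 2.45 (1.76 to 3.35). Over the 93 members, Atp1b1 at 3.2 (2.26 to 4.43) and Slc12a2 at 2.91 (2.05 to 4.04) passed, and Aqp1 did not.

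Of 26 carriers of nutrients and drugs, 13 were tested and 5 were called higher. Slc22a17, a receptor for lipocalin 2, stood at 733 against 206 CPM, a ratio of 3.56 (2.85 to 4.40). Others were Folr1, the sulfate transporter gene Slc13a4 at 5.94 (3.44 to 9.98) and the glucose transporter gene Slc2a12 at 4.27 (2.08 to 8.21). Of the thyroid hormone list 5 of 11 genes were tested and 2 called, Ttr among them. Slco1c1, a thyroxine carrier, had a ratio of 3.0 (1.84 to 4.73) and was called only over the 93 members, at 3.82 (2.32 to 6.07). Lrp2, the large endocytic receptor megalin, had 0 UMIs in members and in ambient RNA.

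Secreted proteins and their partners made up another group well above ambient RNA, with 14 of 19 tested genes higher, 1 lower, and 27 listed. Enpp2 and 1500015O10Rik, which the rule used, are among the 14, so their calls follow from the choice of members. Cab39l, a partner of a kinase complex, stood at 568 against 71.8 CPM, a ratio of 7.91 (5.96 to 10.5). Clu, the chaperone clusterin, had a ratio of 4.28 (3.49 to 5.21), the clotting factor gene F5 of 4.41 (2.85 to 6.68) and Mif, macrophage migration inhibitory factor, of 3.27 (2.59 to 4.09). Cst3, the protease inhibitor cystatin C and a very abundant microglial transcript, was lower at 5254 against 18287 CPM, a ratio of 0.287 (0.267 to 0.308). Other calls of this list rested on a few barcodes. Apoe, the lipid carrier, had a ratio of 2.40 over all members but 0.788 (0.709 to 0.874) over the 93, and Timp3, an inhibitor of matrix proteases, went from 7.41 to 2.72 and was no longer called. Ptgds, which makes prostaglandin D2 and marks meninges as well, took 46.6% of its UMIs from 1 member and had a ratio of 4.88 (4.03 to 5.88) over the 93. The list of amyloid handling genes shared 4 of its 5 calls with the secreted list (Ttr, Clu and Apoe higher, Cst3 lower). Its other called gene, Aplp1, fell short over the 93 at 2.89 (1.61 to 4.87).

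Receptors were mostly not called: of 12 tested of 19 listed, 3 were higher and 1 lower, with a median log2 ratio of -0.25. The 3 were Prlr, which the rule used, Kl and the serotonin receptor gene Htr2c at 370 against 48.4 CPM, a ratio of 7.64 (5.37 to 10.8) with UMIs in 33 members. Ifngr1, a subunit of the interferon-gamma receptor, was lower at 0.296 (0.171 to 0.477), but not called over the 93 at 0.323 (0.176 to 0.546). Among junction and polarity genes only 5 of 20 could be tested, and Ctnna1, the actin-binding alpha-catenin, was called at 3.01 (2.02 to 4.39). Of the barrier claudins, Cldn2 had 6 UMIs and Cldn1 had 4, too few to compare. Krt18, a keratin of simple epithelia, stood at 211 against 32.6 CPM, a ratio of 6.47 (4.08 to 10.1), and was the gene called among 6 tested of 10 cytoskeletal genes. Choroid plexus cells bear tufts of cilia, and of 30 cilia genes 5 were tested and 3 called: Rsph1, a radial spoke protein, at 12.5 (7.34 to 21.4), the small GTPase gene Arl3 at 5.14 (3.09 to 8.34) and the dynein light chain gene Dynll1 at 3.1 (2.41 to 3.96). Over the 93, Rsph9, another radial spoke protein, was also called, at 4.55 (2.10 to 9.05). Foxj1, the regulator of motile cilia, had 5 UMIs. Both Rsph1 and Foxj1 are on the ependymal list as well.

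Of 19 transcription factors 11 were tested and 5 called higher. Besides Otx2 these were Msx1, a roof plate factor, at 6.94 (4.2 to 11.3), Sox9 at 6.07 (3.31 to 10.8), Nfib at 5.95 (3.53 to 9.78) and Id3, an inhibitor of differentiation factors, at 3.79 (2.40 to 5.80), which was not called over the 93 at 3.12 (1.77 to 5.21). Choroid plexus of the hindbrain is known to keep Hox and Meis expression. The 12 Hox and Meis genes listed had 0 UMIs in the members. They summed to 14.7 CPM in ambient RNA and 66.7 CPM in the 18 young barcodes. With 0 of the 12 deep enough to test, no brain region is read from this. Among 7 forebrain genes, Six3 had 10 UMIs in 8 members, 66.0 CPM against 7.61 CPM in ambient RNA, under the 50 UMIs needed for a call.

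Of the gene lists used here, nuclear genes of oxidative phosphorylation, the longest list, had the most calls by number but not by share. Of 74 genes 73 were tested, 43 were higher and 0 lower, with a median log2 ratio of 1.58. Atp5g1, a subunit of the ATP synthase ring, stood at 1558 against 305 CPM, a ratio of 5.12 (4.38 to 5.97). Cox6c and Cox8a, subunits of cytochrome c oxidase, had ratios of 4.78 (4.17 to 5.46) and 3.72 (3.27 to 4.23). Cox8b, the isoform of heart and skeletal muscle, was not on the list and stood at 871 against 81.6 CPM, a ratio of 10.7 (8.39 to 13.6), in 31 members. Chchd10, a protein of the mitochondrial cristae, was found in 69 members at 1868 against 206 CPM, a ratio of 9.09 (7.76 to 10.6). The 13 transcripts of the mitochondrial genome went the other way, with 5 called lower and a median of -1.07, as for mt-Co3 at 0.412 (0.389 to 0.437), and over the 93 members 9 were lower with a median of -1.38. The rule limits mitochondrial UMIs in members but not in ambient RNA, and against the other passing barcodes, which share that limit, 0 of 13 were called and the median was 0.29.

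**Figure D3:**
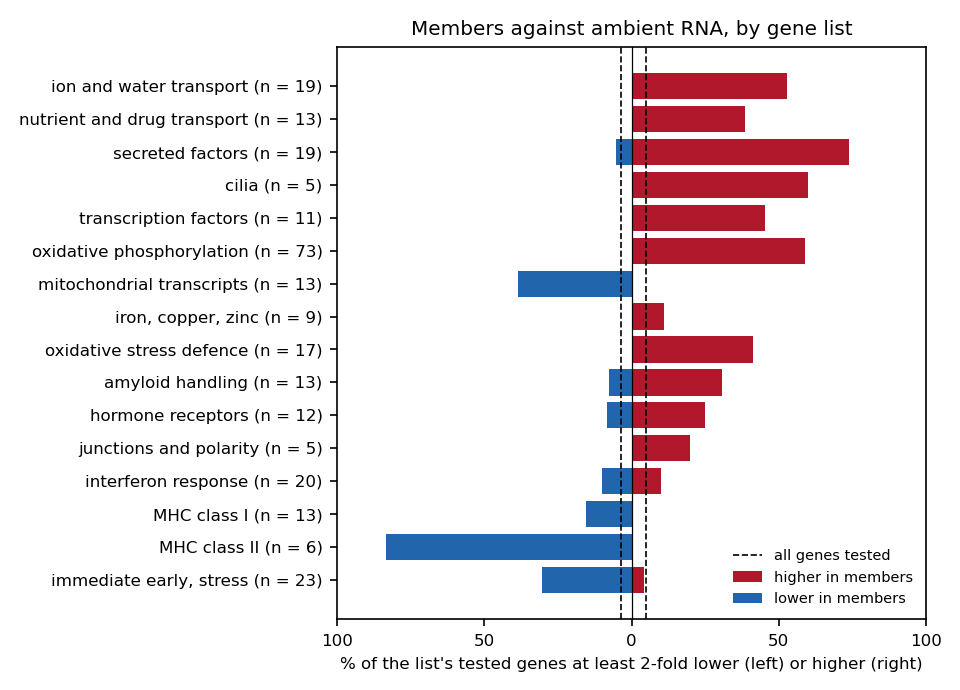
For each gene list, the bar to the right gives the percent of its tested genes called higher in members than in ambient RNA and the bar to the left the percent called lower, with the number tested in brackets. Dashed lines give the same for all 5878 genes, 4.88% and 3.74%. Oxidative phosphorylation, secreted and ion transport lists extend far to the right and MHC class II to the left. Bars include genes of the rule: Enpp2 and 1500015O10Rik (secreted), Trpm3 (ion transport) and Prlr (receptors).

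MHC class II genes were below ambient RNA, while interferon genes were called in both directions. Of 33 interferon response genes 20 were tested, 2 were higher and 2 lower, with a median log2 ratio of -0.10. Ifi27, an interferon-inducible mitochondrial protein, was found in 45 members at 825 against 254 CPM, a ratio of 3.25 (2.65 to 3.97), but Isg15 and Irf7 stood at 1.73 and 1.49, Isg15 too shallow to test and Irf7 not called. Ifitm2 was called at 3.06 (2.01 to 4.54) and not over the 93, at 2.54. The immunoproteasome genes Psmb8 at 0.243 (0.104 to 0.483) and Psmb9, with 0 UMIs and a ratio of at most 0.309, were lower, and neither was called over the 93. For MHC class I, 13 of 14 genes were tested and 2 were lower, among them H2-K1 at 304 against 828 CPM, a ratio of 0.367 (0.267 to 0.491), and B2m had 0.540 (0.442 to 0.653), not called. For MHC class II, 5 of 6 tested were lower: Cd74, the invariant chain, stood at 66.0 against 881 CPM, a ratio of 0.0749 (0.0359 to 0.138), and H2-Aa had 0 UMIs, a ratio of at most 0.0529. Complement genes gave 0 calls among 5 tested of 14, though Cd59a, an inhibitor of the membrane attack complex, was called over the 93 at 3.97 (2.09 to 7.06), and the leukocyte trafficking list gave 1 among 6 tested of 19, the cytokine gene Tgfb2 at 6.35 (3.66 to 10.7). The adhesion gene Vcam1 stood at 2.86 (1.75 to 4.49), not called.

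Immediate early and stress genes, which cell dissociation is known to induce, were lower on balance, with 7 of 23 tested genes lower, 1 higher and a median log2 ratio of -1.67. Junb stood at 106 against 1197 CPM, a ratio of 0.0882 (0.0503 to 0.144), and Egr1 and Zfp36 had ratios of 0.175 and 0.0505. The chaperone gene Hsp90aa1 was higher at 2.59 (2.13 to 3.13). Over the 93, 9 of 23 were lower. Microglial RNA is part of the ambient profile, so a ratio below 1 is measured against a mixture and not against another cell type.

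Some genes with the highest interval bounds rested on single barcodes. All UMIs of Npy and Fabp7 came from 1 member, as did 64.4% of those of Ptn. Leading genes that were spread over barcodes, with at most 20% of UMIs from any 1 member, were Chchd10, Cox8b and Fxyd1 (above), the small heat shock protein gene Cryab at 12.9 (9.40 to 17.7), the kinase gene Stk39, an activator of NKCC1, at 8.72 (6.5 to 11.6), the phospholipase gene Pla2g16 at 10.1 (6.94 to 14.7), the acyl-CoA-binding protein gene Dbi at 7.50 (6.38 to 8.79) and Tpd52l1 at 14.2 (7.87 to 26).

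Because Ttr UMIs occur in nearly all passing barcodes of the aged brain, the share of barcodes with a UMI was compared at equal depth, after thinning each barcode to 500 UMIs. The comparison used 10496 microglial barcodes (median 2267 UMIs unthinned) and 116 barcodes with endothelial markers (median 1649), cell types that should lack these genes. Both sets were chosen to hold under 5 UMIs of the rule's 6 genes, so only genes outside the rule are given. At least 1 Ttr UMI was found in 96.1% of members, 83.2% of microglial and 88.8% of endothelial barcodes, so detection of Ttr separates them little. Kl was found in 28.4% of members (exact 95% interval 19.9% to 38.2%), 1.56% of microglial and 0.862% of endothelial barcodes; unthinned, the shares were 41.2%, 5.46% and 3.45%. Folr1 was found in 10.8% of members (5.51% to 18.5%), 0.505% of microglial barcodes and 0 of 116 endothelial barcodes, which allows up to 2.59%. Unthinned, the shares were 24.5%, 2.32% and 0.862%. Clic6, Otx2 and Igfbp2 were in 24.5%, 10.8% and 18.6% of members and in 1.28%, 0.591% and 1.07% of microglial barcodes. Outside the marker list, Chchd10 was in 46.1% of members and 2.36% of microglial barcodes, and Cox8b in 19.6% and 0.896%.

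**Figure D4:**
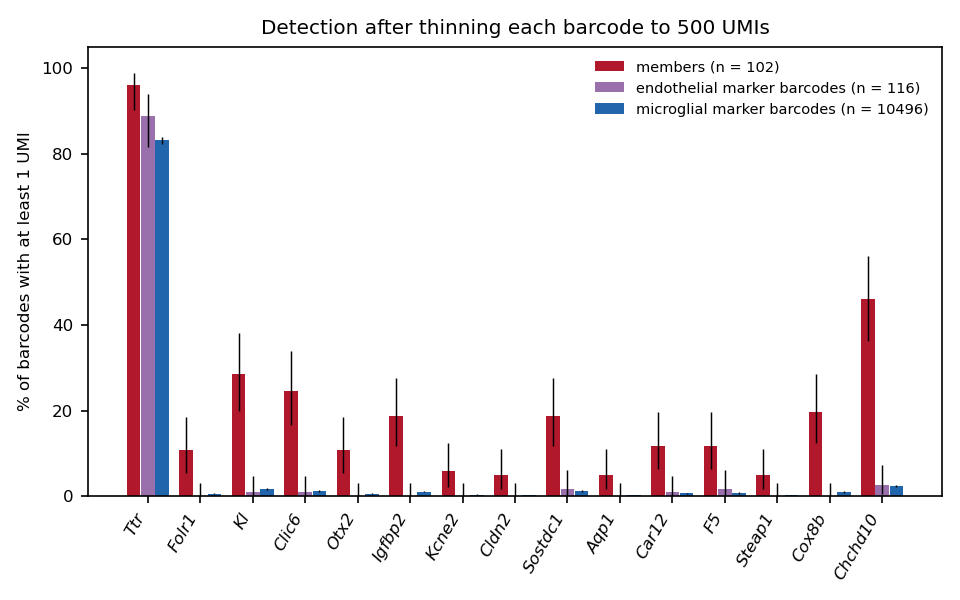
Percent of barcodes with at least 1 UMI of a gene after every barcode was thinned to 500 UMIs, for the 102 members, 116 endothelial marker barcodes and 10496 microglial marker barcodes, with exact 95% intervals. Ttr reaches over 80% in all 3 sets, while Kl and Chchd10 are found in 28.4% and 46.1% of members and in at most 2.59% of the other barcodes.

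Against the other 13560 passing aged brain barcodes, 800 of 12708 genes were higher (6.3%) and 333 lower (2.62%). Ttr had a ratio of 13.3 (13 to 13.5), Chchd10 of 20.2 (17.8 to 22.8) and Cox8b of 29.2 (24.1 to 35.0). Of the choroid plexus markers outside the rule, 16 of 19 were higher, all but Cldn1, Cldn2 and Igf2. For the 93 members, with 5.55% of all tested genes higher and 2.39% lower, 17 of 19 were. Ion and water transport had 16 of 22 genes higher, cilia 14 of 21 and oxidative phosphorylation 51 of 73, while MHC class II had 5 of 7 lower. The rule gene Trpm3 is among the 16. The cilia list shares genes with the ependymal list, such as Rsph1, so their counts are not independent. The other barcodes include the 74 that the microglial limit removed despite at least 2 times as many choroid plexus as microglial UMIs. Against the 116 endothelial barcodes, with 9.58% of 1201 genes higher and 17% lower, the choroid plexus markers that could be tested outside the rule all reached 50 UMIs in the members alone, so their calls were fixed by the filter and are not counted. Ttr had a ratio of 30 (27.9 to 32.2) there. Slc2a1, the glucose transporter of the blood-brain barrier, which did not choose the endothelial barcodes, had a ratio of 0.0300 (0.00966 to 0.0709).

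Few genes separated the members from the 74 deeper barcodes removed by the microglial limit. The 74 were not free of other cell types' markers: 35 held at least 5 UMIs of 1 of the 10 other lists, against 9 of the 102 members. Such a count weighs on depth. In 6 of the 74 the Ttr share was at or below ambient. Of 3274 genes 0.641% were higher and 0.519% lower, and 0 of the 18 tested choroid plexus markers outside the rule were called, with a median log2 ratio of -0.72. Ttr stood at 0.670 (0.659 to 0.681) of its level in the 74. Differences past 2-fold included the mitochondrial tRNA synthetase gene Lars2 at 3.79 (3.29 to 4.35) and AY036118 at 6.77 (5.77 to 7.95), both higher in members. The sodium pump subunit gene Atp1b1 was lower at 0.358 (0.263 to 0.478), as were 4 of 5 tested MHC class II genes, Cd74 at 0.158 (0.0750 to 0.293). Lars2 and AY036118 are known to gather reads of ribosomal RNA.

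The aged and young brains were set side by side with the same rule. Age and library cannot be told apart here, since each age is 1 library. The 18 young barcodes had a median of 2954.5 UMIs, against 859.5 in the aged brain, and 3 of them held 65.5% of the young UMIs. Of the 18, 7 held at least 5 UMIs of another type's list, 5 of them oligodendrocyte genes with at most 0.0482% Ttr. Such a count weighs on depth: another of the 7, with 32978 UMIs and 31.9% Ttr, held 5 endothelial UMIs. The 11 others had Ttr shares of 1.63% to 41.4% with a median of 19.5%, overlapping the 0.375% to 37.8% of the 93 aged ones. Of 695 genes tested over all barcodes, 46 were higher (6.62%) and 27 lower (3.88%) in the aged members. Over the 93 and 11 barcodes, 19 of 372 were higher (5.11%) and 7 lower (1.88%). A gene nearly absent from either side could be tested only with UMIs of the other, so these counts carry that limit.

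Few genes of the epithelium's known functions were called different between the 2 libraries. Of 10 tested choroid plexus markers outside the rule 0 were called, with a median log2 ratio of -0.49, where the median of all genes was 0.12. Over the 93 and 11 barcodes 1 of 8 was lower, Igfbp2. Ion and water transport gave 0 of 11 with a median of -0.20, and oxidative phosphorylation 0 of 61 with a median of 0.08. Ttr stood at 0.616 (0.604 to 0.629) of its young level and Enpp2 at 0.562 (0.521 to 0.606). Without the 3 deepest young barcodes the ratios were 1.3 and 1.86. The young barcodes left then include the 5 with oligodendrocyte genes and at most 0.0482% Ttr. That setting thus cannot show whether a direction rests on the deep barcodes. Over the 93 and 11 barcodes Enpp2 had 0.460 (0.422 to 0.502), not called. For 1500015O10Rik, a secreted protein that the rule used, the ratio of 0.236 (0.191 to 0.290) became 1.14 without the 3 deepest. Over the 93 and 11 barcodes it was 0.365 (0.278 to 0.478). Igfbp2 had 0.396 (0.294 to 0.529), not called, and 0.277 (0.199 to 0.383) over the 93 and 11 barcodes, called lower, but 2.46 without the 3. Bc1, a small noncoding RNA, kept its direction, with 0.218 (0.193 to 0.247) over all barcodes, 0.118 over the 93 and 11, and 0.333 without the 3.

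Cox8b stood at a higher level in the aged members, but its call as higher was fixed by the filter. It reached the UMIs needed for a test only with those of the aged members, also over the 93 and 11 barcodes. Its levels and ratios are therefore given as a description. It had 132 UMIs in 31 aged members and 2 UMIs in the 18 young ones, or 871 against 16.7 CPM, a ratio of 52.3 (14.2 to 436). Over the 93 and 11 barcodes, with 132 and 1 UMIs, the ratio was 52.7 (9.29 to 2096), and without the 3 deepest young barcodes 36.1 (6.37 to 1436). After thinning to 500 UMIs the counts were 29 and 0, too few to test. The 74 deeper aged barcodes, which are not among the members, stood at 497 CPM. Ambient RNA held 81.6 CPM of Cox8b in the aged brain and 4.03 CPM in the young brain, and other passing barcodes 29.8 and 0.475 CPM.

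Some MHC class I genes were higher in aged members, and a gene abundant in microglia moved with them. B2m had 110 and 5 UMIs, a ratio of 17.4 (7.24 to 54.7), H2-D1 a ratio of 21.8 (5.75 to 184) and H2-K1 of 9.11 (3.33 to 34.8). These were the 3 called of 5 tested genes of the list. With so few young UMIs, they reached the UMIs needed for a test only with those of the aged members. Their calls were thus fixed by the filter and are not counted, and the ratios are given as a description. The same holds for Ifi27l2a and Ctss below. Over the 93 and 11 barcodes B2m had a ratio of 16.2 (4.33 to 136), and H2-D1 and H2-K1 had too few UMIs to test. After thinning to 500 UMIs the ratio of H2-D1 was 0.941, again with too few UMIs to test. The interferon-inducible Ifi27l2a had a ratio of 20.2 (5.31 to 171), while Ifi27 had 1.46 over all barcodes and 0.989 over the 93 and 11. Beside these, Ctss, a cathepsin gene abundant in microglia that the rule did not use, had 161 and 3 UMIs, a ratio of 42.5 (14.3 to 208). The rule capped other microglial genes at a fixed number of UMIs, and the young barcodes were deeper, so the levels of those genes are not compared. B2m in ambient RNA was 1345 CPM in the aged and 672 CPM in the young brain. The part of ambient or microglial RNA in the MHC class I difference was not tested.

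**Figure D5:**
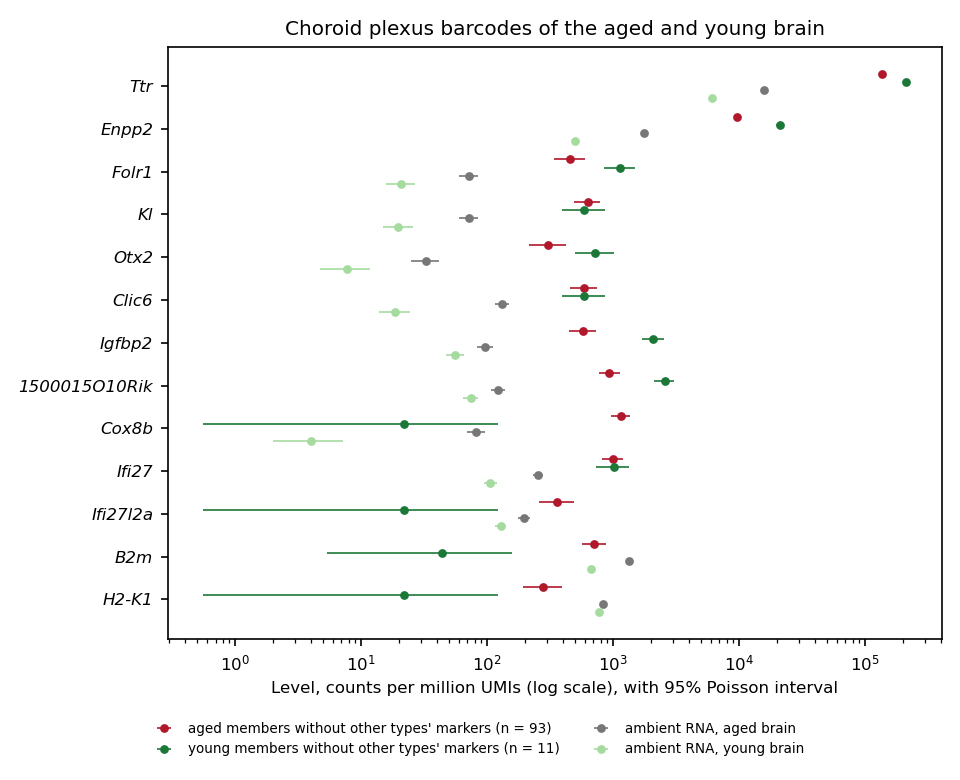
Levels in CPM (log scale, 95% Poisson intervals) of 13 genes in the 93 aged and 11 young barcodes without markers of other types, with ambient RNA of both brains. Cox8b stands at 1157 CPM in the aged and 22 CPM in the young barcodes.

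The authors' deposited table of the aged brain gives genes per cluster. In the authors' deposited table, cluster 9 lists 24 of the 25 choroid plexus markers among 1267 genes, the longest list of any cluster. The authors' deposited table gives Prlr in 99.6% of the cells of cluster 9 and 6.9% of others, and Otx2 in 99.6% and 2.2%. The authors' deposited table lists 9 of the 25 in cluster 7 among 115 genes, with Prlr in 32.3% of its cells and 7.1% of others. In the authors' deposited table, cluster 0 lists 2 of the 25 among 5 genes, and the remaining clusters list 0. In the members, Prlr was found in 53 barcodes and Otx2 in 27. Which barcodes the clusters hold was not analysed here.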

How the data were processed

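RNA was counted per cell barcode in 4 libraries of mouse cells sorted for high CD45, 1 each of aged brain, aged spleen, young brain and young spleen. Each deposited matrix gives raw UMI counts, as whole numbers, for 31053 mouse genes in all barcodes, empty droplets included, and per the file headers was written by software version 3.1.0. Per the submitters' processing notes, the tool was Cell Ranger 1.3.1 and the build GRCh38, which is human, while the gene identifiers are those of mouse. No source used here says how reads matching several genes were handled, so genes with near-identical copies are uncertain. The authors' deposited table of the aged brain gives, per cluster, the fraction of cells with a gene (printed here in percent), p-values and a log ratio whose base is not stated (natural log is likely). The authors' p-values and log ratios were not used.

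Members were found by the rule given in the report. The members and the 23 gene lists and 13 marker lists were chosen with earlier results of these data known. UMIs were summed over barcodes and scaled to 1e6 UMIs (CPM). Intervals are exact 95% Poisson (levels), conditional binomial (ratios) and Clopper-Pearson (shares), and for a group with 0 UMIs of a gene, 3 counts were taken as its upper limit. UMIs remove PCR copies, but intervals cover counting error only. Genes that could be named were the 10 highest and 5 lowest by interval bound in each comparison (immunoglobulin, T cell receptor, haemoglobin, ribosomal, mitochondrial, Xist, Y-linked and unnamed genes set aside), the rule genes, the markers, and from each list its called members and up to 6 with the most UMIs. Genes picked for being spread over barcodes, other list members given at low counts, and the sets without other types' markers were chosen after values were seen. No doublet caller was run: the microglial limit and the marker counts stand in its place. The calls were tested on simulated data. Python 3.11.15, numpy 2.4.6, pandas 2.3.3, scipy 1.17.1 and matplotlib 3.10.9 were used. Alternatives changed barcode limits, ambient definition, scaling, depth and gene filter, and the deepest young barcodes. Some list members that were measured and counted are not reported here by name.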

Additional observations from a re-analysis of the deposited data

How the results depend on the processing

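The number of members moved with the limits. It was 39 with at least 1000 UMIs, 67 and 160 with mitochondrial limits of 5% and 20%, 47 with a rule sum of 10 and 17 with no microglial UMI allowed. With a microglial limit relative to the choroid plexus UMIs, chosen after seeing the data, it was 176, and with that limit and 15%, 20% or no mitochondrial limit 332, 420 and 488. Against ambient RNA, 444 genes were higher with 20 UMIs over both sides, 146 higher and 50 lower with members thinned to 500 UMIs, and 789 higher and 853 lower under the relative limit. Against other barcodes, 288 were higher and 87 lower after thinning, 526 lower with each barcode counted alike, and 1484 higher and 1251 lower under the relative limit. Between ages, the rule sum of 10 gave 18 higher and 9 lower, thinning 1 and 4, leaving out barcodes with other types' markers 19 and 7, the relative limit 123 and 47, both together 7 lower, and each barcode counted alike 44 lower. Between ages, directions were not stable, mostly in alternatives chosen after seeing the data. The median log2 ratio of nutrient and drug carriers became 0.023 under the relative limit, from -0.87. Without the 3 deepest young barcodes the ratio of 1500015O10Rik, which had been called, became 1.14, and ratios below 1 that were not called also crossed 1, for Ttr, Enpp2, Igfbp2, Folr1, Otx2 and Prlr. After thinning H2-D1, called over all UMIs, stood at 0.941 with too few UMIs to test. Ratios of Clic6, Kl, Trpm3, Ifi27 and Calml4, not called, crossed 1 in at least 1 other setting. The causes were not tested, except that thinning leaves fewer UMIs and the relative limit adds deep barcodes. Leaving out the 3 deepest young barcodes keeps the 5 with oligodendrocyte genes, which then weigh more. For the genes of the aged brain comparisons followed through 9 or 10 settings, 0 called ratios crossed 1, while Gm42418 against ambient RNA, not called, ranged from 0.337 to 1.37. Ttr against ambient RNA ranged from 6.36 to 9.67, Kl from 6.82 to 10.2 and Cox8b from 6.77 to 14.8. No paired analysis was possible because each group holds 1 library. At the members' median of 859.5 UMIs most single genes are at 0 in most barcodes.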

Other observations

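Members also differed from ambient RNA in the metal-binding gene Mt3 and in several genes that handle reactive oxygen. Mt3, the brain metallothionein that binds zinc and copper, was found in 58 members and stood at 1492 against 217 CPM, a ratio of 6.88 (95% interval 5.81 to 8.11), while its relative Mt1 had a ratio of 1.40 (1.03 to 1.86), not called. Mt3 was the 1 gene called among 9 tested of the list of iron, copper and zinc genes, where 4.88% of all tested genes were higher. This count is not read as a result about the list. The ferritin gene Fth1 and the transferrin gene Trf had ratios of 1.75 and 1.5. Over the 93 members without other types' markers, the copper transporter gene Slc31a1 was called too, at 3.65 (2.29 to 5.62). Of 24 genes of oxidative stress defence 17 were tested, 7 were higher and 0 lower, with a median log2 ratio of 1.48 beside 0.05 for all genes. Gpx4, which protects membranes from lipid peroxides, stood at 1782 against 445 CPM, a ratio of 4.00 (3.47 to 4.6), Prdx5 had 4.02 (3.28 to 4.89) and Gpx8 had 6.25 (3.27 to 11.6), too shallow to test over the 93.

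Cdkn1c, which encodes the cell cycle inhibitor p57, was found in 27 members at 442 against 60.4 CPM, a ratio of 7.33 (5.33 to 10.0), and over the 93 members without other types' markers the ratio was 9.73. It was the 1 gene higher among 9 tested of 16 senescence and growth arrest genes. Gadd45b had 0 UMIs, a ratio of at most 0.325, which was not called over the 93 (at most 0.432). Cdkn1a stood at 0.837 (0.221 to 2.26), not called, and Cdkn2a, a common marker of senescence, had 0 UMIs in members.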
